A study of Mus musculus with 12 samples.

Results

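The 10 genes described here encode transcription factors that build and maintain the adipocyte: the nuclear receptors Pparg, Ppara, Rxra and Nr1h3, the CCAAT/enhancer-binding proteins Cebpa, Cebpb and Cebpd, the Krüppel-like factor Klf15, and the early B cell factors Ebf1 and Ebf2. They were taken by gene symbol from a table of reads per gene that lists 54134 genes, each symbol matched 1 identifier, and all 10 were among the 15585 genes with enough reads to be tested. RNA-seq was done on iWAT, the inguinal subcutaneous white fat depot, of 12 male C57BL/6J mice, with 1 library per mouse. At 8 weeks of age, 6 mice (AAV-GFP mice) received by tail vein 1e12 genome copies of an adeno-associated virus of serotype AAV8 carrying GFP, and 6 mice (AAV-Notum mice) received the same dose of the virus carrying mouse Notum, which encodes a secreted enzyme that inactivates Wnt proteins. Both transgenes were under the thyroxine binding globulin promoter, which is active in the liver. All 12 mice ate chow for 4 weeks after the injection and were fasted for 4 h before the tissue was taken. Every mouse carried a virus, and no uninjected mouse was analysed here.

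Adipocyte differentiation runs as a relay of transcription factors. C/EBPβ and C/EBPδ are induced first, in response to hormones that include glucocorticoids and to agents that raise cAMP, and they switch on Pparg and Cebpa, which then maintain each other's expression and that of the genes of the mature fat cell. PPARγ binds DNA with RXRα as its partner, Wnt signaling through β-catenin holds the relay back, and EBF2 and PPARα are also known for their part in the thermogenic gene program of brown and beige fat.

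None of the 10 factors differed between the groups at an adjusted p under 0.05 in edgeR, a test that only 0.0513% of all genes tested passed. The early factors Cebpd and Cebpb, together with Ebf2, had the largest differences, with fitted levels 49.3%, 32.2% and 38.4% lower after AAV-Notum, and these were the 3 members with an unadjusted p under 0.05. The late factors Pparg and Cebpa, which define the mature adipocyte, differed by less than the spread between mice. All 10 fitted fold changes pointed lower after AAV-Notum; their median was -0.24 on the log2 scale, and that of all genes tested was 0.0077. The share of all genes below 0 was 48.8%. The members share the same 12 libraries and vary together across mice, as described below, so their 10 directions are not 10 separate observations. Of all genes tested, 9.54% were lower and 4.64% were higher at an unadjusted p under 0.05, beside 3 of 10 members lower and 0 of 10 higher. No member separated the groups without overlap, which 1.09% of all genes did. A lower level in a piece of fat can come from fewer cells that hold the mRNA or from less mRNA per cell, and bulk RNA-seq cannot tell these apart.

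**Figure D1:**
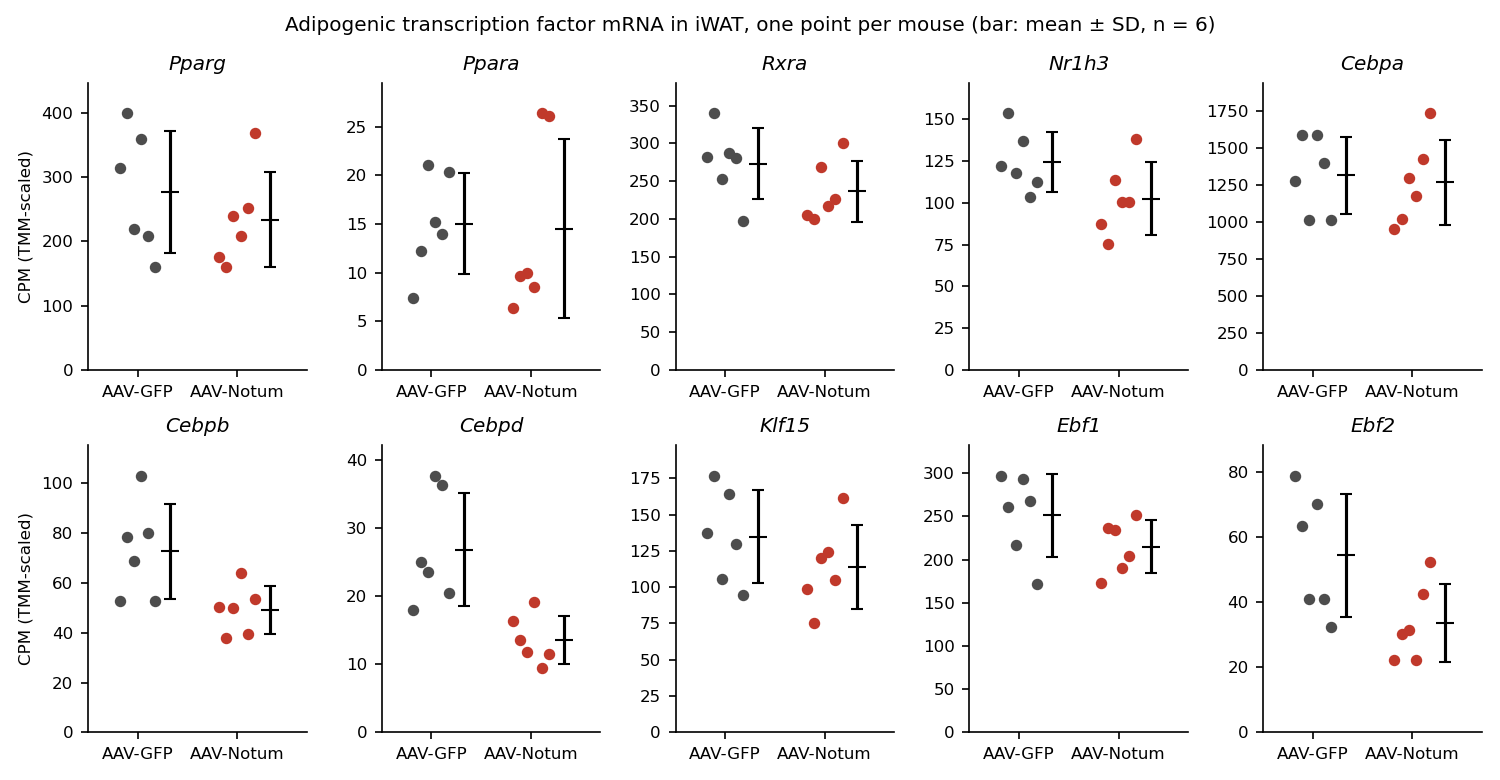
Level of each of the 10 factors in iWAT, in CPM (TMM-scaled counts; each axis starts at 0), for 6 AAV-GFP and 6 AAV-Notum mice. Each point is 1 mouse, and the bar beside each group gives the mean ± SD. In the Cebpd panel 5 of 6 red points lie below every grey one, whereas in the Cebpa and Pparg panels the groups cover nearly the same range.

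The promoters of 4 members are shown here because they belong to the genes on which the comparison turns: Cebpb, an early factor with a lower mean after AAV-Notum, the Pparg start with C/EBP elements next to it, and Cebpa and Klf15, late factors without a difference beyond the spread. Each sequence is the RefSeq promoter on GRCm38.p6, plus strand, from 250 bases before to 50 bases after a listed start, and capitals mark motif letters found on either strand. Cebpb is on chr2:167688665-167688964, Cebpa on chr7:35119043-35119342, Klf15 on chr6:90462326-90462625, and listed start 3 of Pparg on chr6:115421816-115422115.
Cebpb: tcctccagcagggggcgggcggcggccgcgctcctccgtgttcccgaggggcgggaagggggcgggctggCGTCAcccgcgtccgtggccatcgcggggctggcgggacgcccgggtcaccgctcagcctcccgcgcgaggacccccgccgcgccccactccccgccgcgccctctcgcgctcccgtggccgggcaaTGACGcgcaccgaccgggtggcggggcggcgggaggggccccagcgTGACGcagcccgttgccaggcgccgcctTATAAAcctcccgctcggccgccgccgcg
Cebpa: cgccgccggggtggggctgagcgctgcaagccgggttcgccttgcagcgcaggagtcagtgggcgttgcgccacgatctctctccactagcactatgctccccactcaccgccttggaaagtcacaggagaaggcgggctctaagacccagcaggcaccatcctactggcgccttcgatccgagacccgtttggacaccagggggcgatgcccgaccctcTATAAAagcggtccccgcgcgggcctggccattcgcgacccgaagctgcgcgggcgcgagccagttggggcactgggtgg
Klf15: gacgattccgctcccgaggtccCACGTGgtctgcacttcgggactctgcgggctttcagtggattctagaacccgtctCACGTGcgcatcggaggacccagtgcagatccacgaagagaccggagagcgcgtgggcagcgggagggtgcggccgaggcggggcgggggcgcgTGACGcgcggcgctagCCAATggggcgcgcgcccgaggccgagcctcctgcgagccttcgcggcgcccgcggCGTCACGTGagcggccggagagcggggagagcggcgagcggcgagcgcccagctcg
Pparg, start 3: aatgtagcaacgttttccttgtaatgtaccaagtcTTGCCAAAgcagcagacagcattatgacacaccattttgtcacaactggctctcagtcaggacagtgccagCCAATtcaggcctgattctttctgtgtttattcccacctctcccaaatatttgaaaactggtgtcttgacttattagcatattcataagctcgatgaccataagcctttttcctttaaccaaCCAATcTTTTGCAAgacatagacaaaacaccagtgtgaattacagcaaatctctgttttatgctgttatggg
The Cebpb promoter held 3 copies of TGACG, the core of the element to which the cAMP-responsive factor CREB binds, with first bases at -180, -53 and -7 from the start, and TATAAA at 22 after it. TGACG was in 20.8% of the 32851 promoters of this length and TATAAA in 13.6%. Start 3 of Pparg held 2 copies of TTGCNNAA, the letters read by C/EBP proteins and found in 10.8% of promoters, at -215 and -16, and 2 copies of CCAAT (37.4% of promoters) at -144 and -22. Its GC content was 40.3%, beside a median of 52.7% over all promoters. The Klf15 promoter held CACGTG, the E-box that clock proteins and other basic helix-loop-helix factors bind, at -228, -172 and -3 (7.15% of promoters), and TGACG at -78 and -6, the latter overlapping the last E-box. The Cebpa promoter held TATAAA at -30. The table matched 8 members with 13 listed starts. None of the 13 held AGAACA, the half-site of the glucocorticoid receptor (19.0% of promoters), ATCAAAG, the element of the TCF factors that partner β-catenin (3.73%), or a full glucocorticoid response element (0.00913%), a PPAR-RXR direct repeat (0.0396%), an EBF element (0.904%) or TGACGTCA (1.79%). Elements this rare are absent from most sets of 13 windows, so their absence sets these factors apart from no other genes. Cebpd and Ebf2 had no entry. These matches describe letters in a window and say nothing of binding.

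Pparg (ENSMUSG00000000440, chr6:115360951-115490399 on GRCm38), the master regulator of fat cell differentiation and the target of the glitazone drugs, ranged from 160.3 to 399.2 CPM (counts scaled to library size) in the AAV-GFP group (median 266.8) and from 159.9 to 367.8 CPM in the AAV-Notum group (median 223.8). The lowest mice of both groups had nearly the same level, and the groups overlapped over almost their whole range. Means were 277 ± 94.5 against 234 ± 74.5 CPM (SD, n = 6 each), a log2 fold change of -0.24 (standard error 0.25, 95% interval -0.79 to 0.30, edgeR adjusted p = 0.601). The interval leaves room for a level 42.3% lower or 23.5% higher, so these 12 mice do not set a narrow limit on Pparg. The counts join all isoforms of Pparg, including the fat-specific one.

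Rxra (ENSMUSG00000015846, chr2:27676440-27762957), the partner with which PPARγ, PPARα and LXRα bind DNA, ranged from 197 to 340 CPM with AAV-GFP (median 281) and from 200.3 to 300.4 CPM with AAV-Notum (median 222). Every AAV-Notum value lay inside the range of the other group, and 5 of 6 were under its mean. Means were 273 ± 47.0 against 236 ± 39.9 CPM (SD, n = 6 each), with a log2 fold change of -0.21 (standard error 0.14, 95% interval -0.51 to 0.09, edgeR adjusted p = 0.469). Nr1h3 (ENSMUSG00000002108, chr2:91184061-91202834), which encodes the oxysterol receptor LXRα, ranged from 104 to 154 CPM with AAV-GFP (median 119.9) and from 75.2 to 138 CPM with AAV-Notum (median 100.5). In 4 AAV-Notum mice Nr1h3 was under the whole AAV-GFP range, while mice S_2033 and S_2042 were inside it. For Nr1h3 the log2 fold change was -0.28 (standard error 0.14, 95% interval -0.59 to 0.03, edgeR adjusted p = 0.386), and the exact permutation test of the group means on the log2 CPM scale, two-sided and over every way to split the 12 mice equally, gave p = 0.0758. Exons of Nr1h3 share 34 bases with Gm13783 on the same strand.

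Ppara, the fatty acid oxidation receptor that is high in liver and brown fat, had the widest spread of the 10 between AAV-Notum mice, relative to its mean. Ppara (ENSMUSG00000022383, chr15:85734983-85802819) ranged from 7.40 to 21.1 CPM with AAV-GFP (median 14.6) and from 6.35 to 26.4 CPM with AAV-Notum (median 9.82). The AAV-Notum mice split: mice S_2041 and S_2042 had 26.4 and 26.2 CPM, above every AAV-GFP mouse, whereas the other 4 had 6.35 to 9.94 CPM. Between the groups Ppara had a log2 fold change of -0.05 (standard error 0.39, 95% interval -0.89 to 0.79, edgeR adjusted p = 0.949), the widest interval of the 10. Over the 12 fits that each left out 1 mouse it ran from -0.31 (without AAV-Notum mouse S_2041) to 0.10 (without AAV-Notum mouse S_2031), so its sign depended on which mouse was left out. Mice S_2041 and S_2042 were the only AAV-Notum mice of their number series, the other 4 being S_2031 to S_2034. The labels do not say what the series stands for, so it and the split of Ppara cannot be told apart. The split was not particular to Ppara. Within the AAV-Notum group these 2 mice were also the highest in Pparg (251.5 and 367.8 CPM, the others 159.9 to 239.8 CPM). They were also the highest in Cebpa (1422 and 1734 CPM, the others 951.5 to 1300 CPM) and Ebf2, and the lowest in Cebpd. The same 2 mice had the highest Cidea, which encodes a lipid droplet protein abundant in brown fat, with 153 CPM in mouse S_2041 and 109 CPM in mouse S_2042, and the other 10 mice had 18.7 to 69.7 CPM. They also had the highest Cox8b, a respiratory chain subunit of brown fat and muscle, with 118 and 108 CPM. Mouse S_2042 also held the most skeletal muscle RNA, with 4703 CPM over 10 muscle markers and 27.9 to 1029 CPM in the other 11 mice. Muscle expresses Ppara as well as Cox8b, and its part in these values was not tested. Ucp1, the uncoupling protein of thermogenic fat, was 47.4 CPM in mouse S_2041 but 13.7 CPM in mouse S_2042, beside 14.5 CPM in AAV-GFP mouse S_2022. Among AAV-GFP mice the highest Ppara, 21.1 CPM in mouse S_2013, was not in a mouse with high Cidea (19.8 CPM). That mouse had the highest hepatocyte score of all 12 (7.98, the mean log2 CPM of 10 hepatocyte markers) and 100.9 CPM of Slc27a2, a fatty acid transporter abundant in liver. The hepatocyte score was 5.50 in mouse S_2041 and 0.638 in mouse S_2042, where the lowest of all mice was 0.448. The same 10 markers summed to 3678 and 7014 CPM in these mice, most of it from Cyp2e1 (2936 and 6979 CPM), a cytochrome P450 that fat also expresses, and without it the other 9 summed to 742 and 34.96 CPM. The part of hepatocyte RNA in the Ppara level was not tested.

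**Figure D2:**
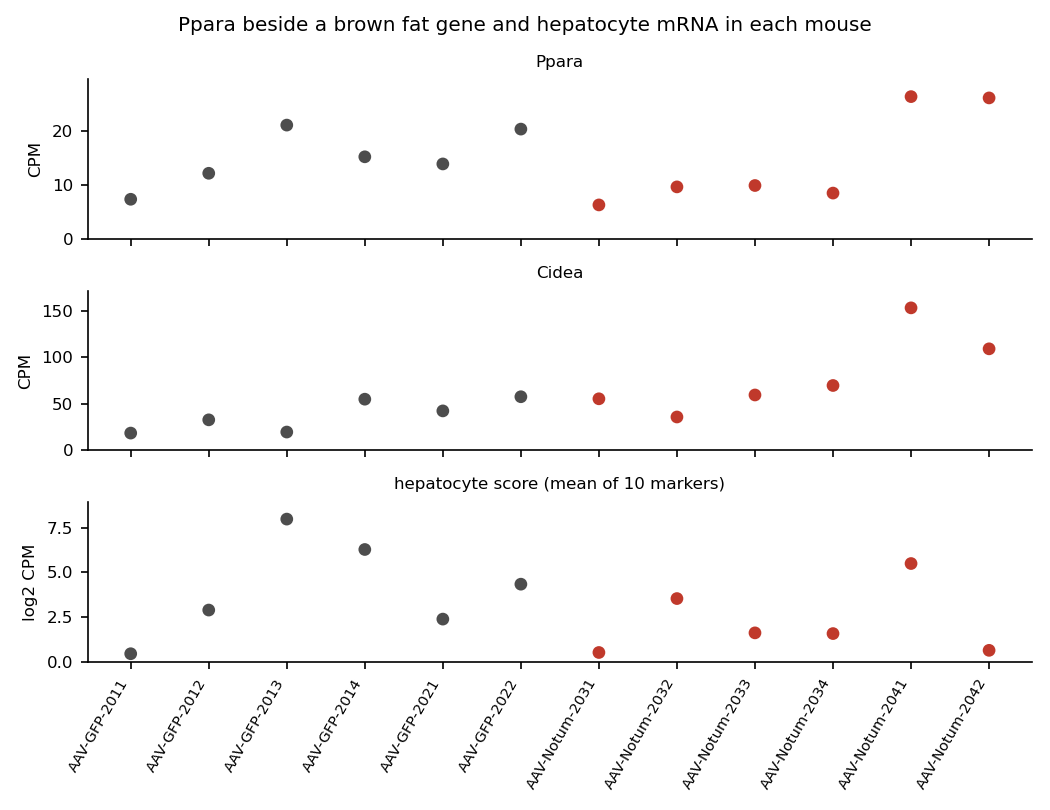
Ppara and Cidea in CPM (axes from 0) and the hepatocyte score (mean log2 CPM of 10 markers) in each of the 12 mice, AAV-GFP in grey and AAV-Notum in red. AAV-Notum mice S_2041 and S_2042 have the highest Ppara and the highest Cidea, and AAV-GFP mouse S_2013 has high Ppara with low Cidea and the highest hepatocyte score.

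Within the C/EBP family the larger differences between the groups were in the early members. Cebpd (ENSMUSG00000071637, chr16:15887286-15891031), which encodes the early factor C/EBPδ, ranged from 17.99 to 37.7 CPM with AAV-GFP (median 24.3) and from 9.41 to 19.1 CPM with AAV-Notum (median 12.7). Only AAV-Notum mouse S_2034, with 19.1 CPM, was above the lowest mouse of the other group, S_2011. Means were 26.9 ± 8.27 against 13.6 ± 3.55 CPM (SD, n = 6 each), a log2 fold change of -0.98 (standard error 0.22, 95% interval -1.46 to -0.50, unadjusted p = 7.58e-04, edgeR adjusted p = 0.124). The two-sided exact permutation test gave p = 0.00433, where 0.00216 is the smallest that 6 mice against 6 allow. With DESeq2, the tool that the study names, the log2 fold change was -0.97 and the adjusted p was 0.00638. DESeq2 passed 2.32% of the genes to which it gave an adjusted p as lower, and Cebpd was the 1 member among them. Cebpd rested on 153 to 789 reads per mouse, and its exons share 562 bases with Spidr on the opposite strand. Whether the reads were counted by strand is not given in the sources used here.

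Cebpb (ENSMUSG00000056501, chr2:167688915-167690418), the other early factor, ranged from 52.8 to 102.9 CPM with AAV-GFP (median 73.5) and from 37.9 to 63.9 CPM with AAV-Notum (median 50.1). The 4 lowest mice were all AAV-Notum and the 4 highest all AAV-GFP. Means were 72.5 ± 18.9 against 49.2 ± 9.56 CPM (SD, n = 6 each). Cebpb had a log2 fold change of -0.56 (standard error 0.18, 95% interval -0.95 to -0.17, unadjusted p = 0.00842, edgeR adjusted p = 0.214), the exact permutation p was 0.0173, and the adjusted p from DESeq2 was 0.0936. Its single exon shares 312 bases with Tmem189 on the opposite strand. The normalized table deposited beside the counts held 67.2% as many Cebpb reads, and from those reads the log2 fold change was -0.59 (unadjusted p = 0.00748, edgeR adjusted p = 0.208). Cebpa (ENSMUSG00000034957, chr7:35119293-35121928), which encodes the late factor C/EBPα, ranged from 1012 to 1588 CPM with AAV-GFP (median 1340) and from 951 to 1734 CPM with AAV-Notum (median 1238). The lowest and the highest Cebpa of all 12 mice were both in AAV-Notum mice, so the AAV-GFP range lay inside theirs. Cebpa had a log2 fold change of -0.05 (standard error 0.18, 95% interval -0.44 to 0.34, edgeR adjusted p = 0.888), which leaves room for a level 26.3% lower or 26.3% higher.

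The balance between late and early C/EBPs was compared within each mouse, as a difference of 2 log2 CPM values. Cebpa exceeded Cebpd by 5.64 ± 0.35 with AAV-GFP and 6.54 ± 0.62 with AAV-Notum (SD, n = 6 each), a shift of 0.90, and 4 mice of the second group were above the range of the first (two-sided exact permutation p = 0.0152, 0.0491 adjusted over 4 pairs). Cebpa exceeded Cebpb by 4.19 ± 0.27 and 4.68 ± 0.39 (SD, n = 6 each), a shift of 0.49 (exact permutation p = 0.0368, adjusted 0.0491). Mice S_2041 and S_2042, of their own number series, had the highest Cebpa of the AAV-Notum group (1422 and 1734 CPM). They also had its lowest Cebpd (9.41 and 11.5 CPM), and the part of the series in these shifts was not tested. The adjusted p of both pairs was 0.0548 with the authors' normalized values in place of CPM and 0.124 without AAV-GFP mice S_2011 and S_2014, and it was above 0.05 in 10 of 12 fits without 1 mouse for Cebpb and in 8 of 12 for Cebpd. Pparg minus Ppara, a pair within the PPAR family, differed between the groups by -0.03 (exact permutation p = 0.950).

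Klf15 (ENSMUSG00000030087, chr6:90462576-90475238), a late factor that raises the glucose transporter GLUT4 and amino acid breakdown, ranged from 94.9 to 177 CPM with AAV-GFP (median 133) and from 75.3 to 161 CPM with AAV-Notum (median 112). Mouse S_2032 was the single AAV-Notum mouse under the range of the other group. Klf15 had a log2 fold change of -0.24 (standard error 0.19, 95% interval -0.66 to 0.18, edgeR adjusted p = 0.515). Ebf1 (ENSMUSG00000057098, chr11:44617317-45008091), a factor of adipocytes and of B cells, ranged from 172 to 297 CPM with AAV-GFP (median 264) and from 173 to 252 CPM with AAV-Notum (median 219). The AAV-Notum values lay within the range of the other group, whose 4 highest mice were above all of them. Ebf1 had a log2 fold change of -0.22 (standard error 0.14, 95% interval -0.54 to 0.09, edgeR adjusted p = 0.455).

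Ebf2 (ENSMUSG00000022053, chr14:67233292-67430918), a factor of adipose precursors and of the brown fat program, ranged from 32.3 to 78.7 CPM with AAV-GFP (median 52.2) and from 22.2 to 52.4 CPM with AAV-Notum (median 30.8). The highest AAV-Notum values of Ebf2, 42.6 and 52.4 CPM, were in mice S_2041 and S_2042, the mice with high Ppara, and the other 4 were under the whole AAV-GFP range. Means were 54.4 ± 18.8 against 33.5 ± 11.9 CPM (SD, n = 6 each), a log2 fold change of -0.70 (standard error 0.27, 95% interval -1.29 to -0.11, unadjusted p = 0.0233, edgeR adjusted p = 0.286; exact permutation p = 0.0411). The highest AAV-GFP values, 78.7 and 70.0 CPM, were in mice S_2011 and S_2014, whose iWAT held little lymphoid RNA (summed B cell markers 7.23 and 4.71 CPM, beside 397 to 2179 CPM in the other 10 mice). Without these mice the log2 fold change was -0.41 (unadjusted p = 0.152), and with a lymphoid score as covariate it was -0.22 (unadjusted p = 0.278). Ebf1 exceeded Ebf2 by 2.25 ± 0.30 on the log2 CPM scale with AAV-GFP and 2.74 ± 0.38 with AAV-Notum (SD, n = 6 each), a shift of 0.48 (exact permutation p = 0.0346, adjusted 0.0491), and the adjusted p was 0.171 without mice S_2011 and S_2014 and above 0.05 in 10 of 12 fits without 1 mouse. Of the adipose progenitor markers, 3 of 9 tested were lower at an unadjusted p under 0.05, beside 9.54% of all genes. Their median log2 fold change was -0.18. Pdgfra, a growth factor receptor of these cells, ranged from 60.4 to 112 CPM with AAV-GFP and from 54.5 to 63.0 CPM with AAV-Notum. The whole list did not follow Pdgfra: its score (mean log2 CPM) was 4.63 to 5.69 with AAV-GFP and 5.26 to 5.63 with AAV-Notum. Its summed level was 922 to 1555 CPM and 1056 to 1241 CPM. Of 10 endothelial markers 3 were lower, beside the same 9.54% of all genes, with Pecam1 at 162 to 248 and 198 to 229 CPM. The part of either cell type in the level of Ebf2 was not tested. Mouse S_2011, the highest in Ebf2, also had the lowest RNA integrity number of all mice (5.7). With that number as covariate Ebf2 was at -0.51 (unadjusted p = 0.0826, edgeR adjusted p = 0.616), 2 members in place of 3 were lower, and 5.95% of all genes were lower. Exons of Ebf2 share 424 bases with Gm10860 on the opposite strand, and the normalized table held 88.4% as many Ebf2 reads as the count table (log2 fold change -0.69 there).

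**Figure D3:**
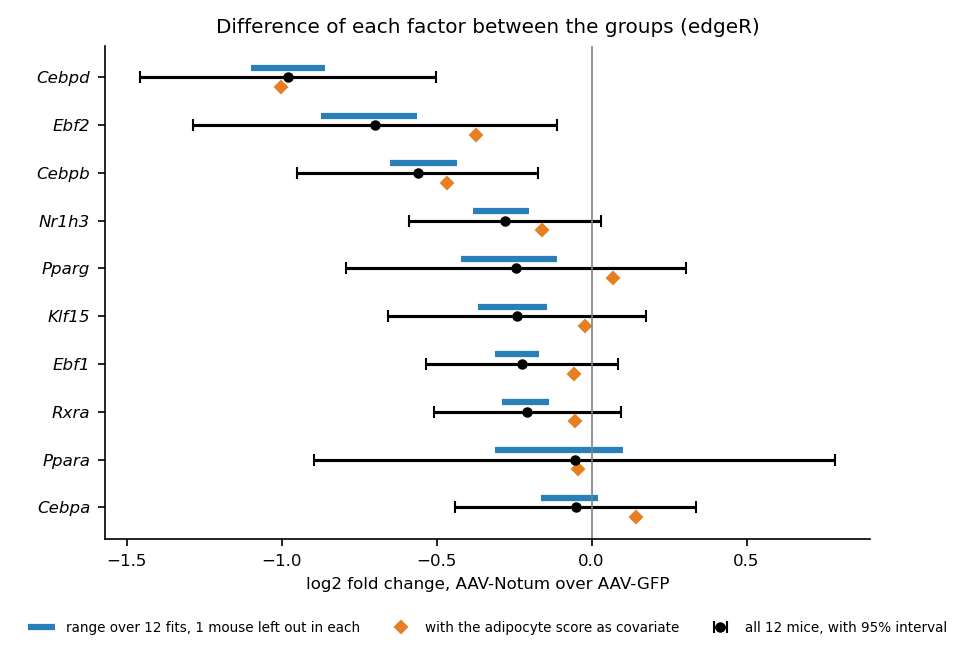
Log2 fold change of each factor, AAV-Notum over AAV-GFP, from edgeR: black points with 95% intervals for all 12 mice, blue bars for the range over 12 fits with 1 mouse left out in each, orange diamonds with the adipocyte score as covariate. The intervals of Cebpd, Ebf2 and Cebpb lie below 0, and with the covariate Ebf2 moves from -0.70 to -0.37 while Cebpd stays at -1.003.

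Levels of different factors were compared per length, in TPM (reads per base of exon, scaled to the same total in every library). Cebpa was by far the most abundant, with a mean of 1504 TPM in the AAV-GFP group and 1438 TPM in the AAV-Notum group, and Pparg came next with 281 and 235 TPM. In AAV-GFP mice Rxra (151 TPM), Nr1h3 (149.6 TPM), Cebpb (146 TPM) and Klf15 (145 TPM) formed a group whose order changed from mouse to mouse, with the higher of 2 neighbours above the lower in 3 or 4 of 6 mice. The place of Cebpb rests on the count table, since the normalized table held fewer reads of it. Ebf1 followed at 77.7 TPM, then Ebf2 at 23.5, Cebpd at 21.7 and Ppara at 12.0 TPM. Ebf2 and Cebpd could not be ordered in AAV-GFP mice (Ebf2 was higher in 3 of 6). In AAV-Notum mice Cebpb stood at 100.5 TPM beside 131 for Rxra, 123.0 for Klf15 and 122.8 for Nr1h3, and Cebpd at 11.4 TPM was close to Ppara at 10.7 TPM (Cebpd was higher in 4 of 6 mice, against 6 of 6 in the AAV-GFP group). This difference in order was not tested.

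Across the 12 mice the factors differed in how closely their levels followed the adipocyte score. This score, the mean log2 CPM of 10 adipocyte markers, ran from 10.7 to 11.7 with AAV-GFP and from 10.5 to 11.6 with AAV-Notum. Its Pearson correlation with log2 CPM was 0.916 for Pparg (Spearman 0.867), 0.902 for Rxra (0.916), 0.898 for Cebpa (0.790), 0.875 for Ebf2 (0.874), 0.869 for Klf15 (0.888), 0.864 for Ebf1 (0.888) and 0.776 for Nr1h3 (0.776). These 7 had permutation p-values, adjusted over 30 relations, of 0.00186 to 0.00609 for Pearson's r and 0.0018 to 0.0176 for Spearman's rho, and without the 2 mice farthest from the median score r was still 0.696 to 0.901. Cebpb (r = 0.479, rho = 0.503), Cebpd (r = 0.234, rho = 0.294) and Ppara (r = 0.177, rho = 0.182) had adjusted permutation p of 0.218, 0.550 and 0.618 for r, and the differences between the correlations were not tested. For Ppara the pooled r hides opposite signs, with r = -0.76 within the 6 AAV-GFP mice and 0.79 within the 6 AAV-Notum mice (exact permutation p = 0.0819 and 0.0736). Within the 6 AAV-GFP mice r was 0.888 for Pparg, 0.576 for Nr1h3, 0.489 for Cebpb and 0.325 for Cebpd, and within the 6 AAV-Notum mice 0.949, 0.908, 0.128 and -0.65.

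The differences of Cebpb and Cebpd between the groups were largely kept when the score was added to the fit, an alternative chosen after seeing the data. With the adipocyte score as covariate the log2 fold change of Cebpd was -1.003 (unadjusted p = 0.00180, edgeR adjusted p = 0.101) and that of Cebpb -0.47 (unadjusted p = 0.0274). Ebf2 was at -0.37 (unadjusted p = 0.0215) with a standard error of 0.14. Pparg and Cebpa turned to 0.07 and 0.14, Rxra, Ebf1 and Klf15 were at -0.05, -0.06 and -0.02, and Nr1h3 was at -0.16, all with unadjusted p above 0.05. The score is itself made of genes that PPARγ and C/EBPα drive, so it does not separate the number of adipocytes from the activity of these factors.

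**Figure D4:**
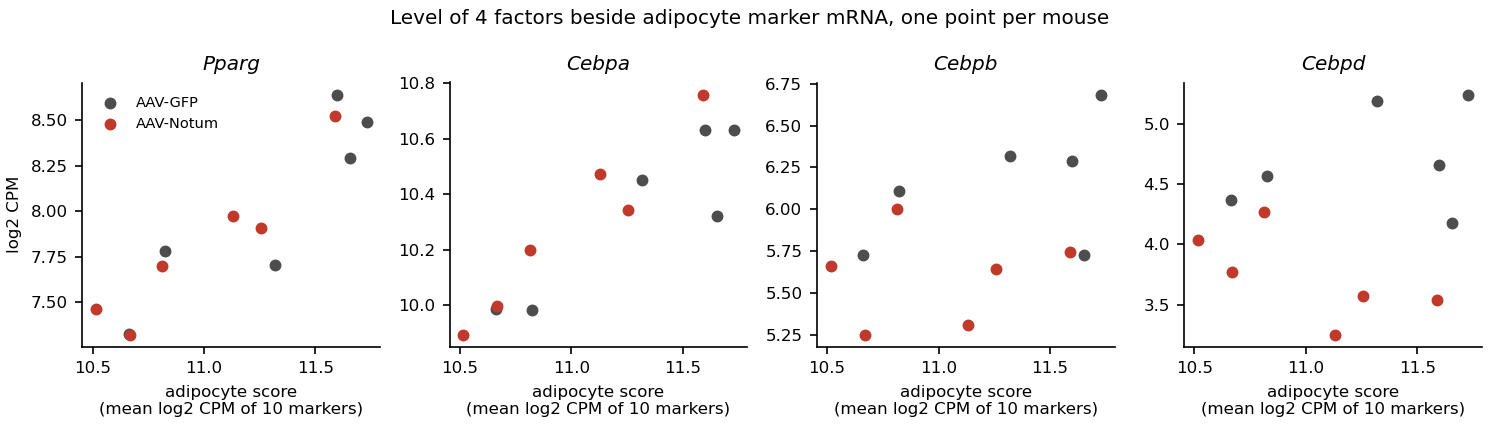
Log2 CPM of Pparg, Cebpa, Cebpb and Cebpd against the adipocyte score (mean log2 CPM of 10 adipocyte markers), 1 point per mouse, AAV-GFP in grey and AAV-Notum in red. Pparg and Cebpa rise with the score in both groups (r = 0.916 and 0.898 over 12 mice), and r is 0.234 for Cebpd.

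RNA of other cell types varied between the mice. The summed level of 10 B cell markers was 4.71 to 1399 CPM with AAV-GFP and 469.6 to 2179 CPM with AAV-Notum, and that of 10 T cell markers was 7.99 to 829 and 231 to 964 CPM. Adipocyte markers summed to 39100 to 68268 and 34814 to 78656 CPM, with Adipoq at 2681 to 5036 and 2194 to 5222 CPM, so the defining fat marker was high in every mouse. Hepatocyte Alb ran from 44.0 to 3805 and from 17.8 to 523 CPM. The median log2 fold change of the 10 hepatocyte markers was -2.79. Of them 3 were lower at an unadjusted p under 0.05, beside 9.54% of all genes. Over the 10 mice with lymphoid RNA, leaving out mice S_2011 and S_2014, which formed a cluster of their own, the B cell score correlated with Pparg at r = -0.93 (rho = -0.82), and 6 members had an adjusted permutation p under 0.05 for r but 2 (Pparg and Ebf2) for rho. Without the 2 mice farthest from the median score, over 8 mice, r fell in size to -0.68 for Pparg, -0.51 for Rxra and -0.62 for Ebf2. For Cebpd r was -0.08 (rho = -0.16) and for Cebpb -0.44 (rho = -0.56). With the lymphoid score as covariate Cebpd was at -0.97 (unadjusted p = 0.00219) and Cebpb at -0.45 (unadjusted p = 0.0403), whereas Pparg, Cebpa and Klf15 turned to 0.15, 0.14 and 0.00157. The RNA integrity number was 5.7 to 7.6 with AAV-GFP and 6.9 to 7.4 with AAV-Notum, and no member correlated with it at an adjusted p under 0.05. For Ebf2 r was -0.55 (rho = -0.45, adjusted permutation p = 0.125 and 0.192). Notum itself had 1 to 17 reads per mouse with AAV-GFP. With AAV-Notum it had 560 reads in mouse S_2032 and 433 in mouse S_2041, and the other 4 mice had 8 to 16, within the AAV-GFP range, but the transgene was driven in the liver, so its level in fat does not check the labels.

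The genes around the factors were counted in 8 lists. At an adjusted p under 0.05 edgeR called 0 genes in every one of them, so the counts that follow use the unadjusted p, at which 9.54% of all genes were lower and 4.64% higher. Of 31 tested PPARγ target genes, 6 were lower and 2 higher, and the median of their log2 fold changes was -0.22. Over the fits without 1 mouse the lower count ran from 2 (without S_2011) to 10 (without S_2042), was 3 without any 1 of S_2012, S_2014, S_2031, S_2032 and S_2034, and the median ran from -0.36 to -0.15. Of all genes 7.0% were lower without S_2011 and 13.4% without S_2042. The direction of the median depended on the covariate. With the lymphoid score the median was 0.13, with 0 PPARγ targets lower and 6 higher beside 4.92% and 4.21% of all genes. With the adipocyte score, which is made of genes of the same kind, it was 0.06, with 5 lower and 8 higher beside 7.56% and 8.11%. With the RNA integrity number 3 targets were lower beside 5.95%, and without S_2011 and S_2014 0 were lower beside 4.95%. Fabp5, a fatty acid binding protein, had 46.1 ± 6.28 CPM with AAV-GFP and 72.9 ± 22.4 CPM with AAV-Notum (SD, n = 6 each; log2 fold change 0.66, edgeR adjusted p = 0.201), whereas Aqp7, the glycerol channel of the adipocyte, had 292 ± 103 and 181 ± 43.0 CPM (-0.68, edgeR adjusted p = 0.243). Classic targets such as Fabp4 (0.02) and Adipoq (-0.22) were close to the median of the list or of all genes. Of 20 tested PPARα target genes 6 were lower and 0 higher, with a median of -0.11. DESeq2 gave 9 lower beside 5.87% of all genes, and limma-voom 4 beside 8.52%. With the lymphoid score the median of these targets turned to 0.09 (4 lower, 0 higher). With the adipocyte score it turned to 0.05 (6 lower, 3 higher). Txnip, an arrestin that limits glucose uptake, had 2230.1 ± 619.9 and 1204 ± 97.4 CPM (SD, n = 6 each; -0.89, edgeR adjusted p = 0.102). The groups did not overlap for Txnip.

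The LXR target list had 2 of 13 tested genes lower and 0 higher, and a median of -0.09. These counts depended on the setting. DESeq2 gave 5 lower and 1 higher, beside 5.87% and 3.34% of all genes, and the filter of at least 1 count gave 4 lower beside 5.88%. The lymphoid score gave 0 lower and 2 higher and the adipocyte score 2 and 2, where the shares of all genes were those given for the PPARγ targets. Without S_2011 and S_2014 there were 1 and 1, beside 4.95% and 2.16%. The 2 were Pltp, a phospholipid transfer protein (166 ± 35.8 and 119.6 ± 14.0 CPM, SD, n = 6 each), and Rarres2, which encodes the adipokine chemerin (493 ± 167 and 309 ± 78.0 CPM). In the KLF15 list 1 of 8 was lower: Tat, a liver enzyme of tyrosine breakdown and a hepatocyte marker (0 to 57.1 CPM). The median of the list was -0.18. Leaving out 1 mouse gave 0 lower without any 1 of S_2013, S_2014 and S_2031 to S_2034, 2 lower without S_2022, and a median of -0.39 to -0.12, which turned to 0.07 with the lymphoid score and 0.04 with the adipocyte score. Gpt2, an alanine aminotransferase of the same list, had a log2 fold change of -0.52 (edgeR adjusted p = 0.390). Of 32 tested partners and coregulators 5 were lower (9 without S_2042) and 2 higher, with a median of -0.07. Klf4, which is known to induce Cebpb at the start of adipogenesis, had 54.2 ± 10.7 CPM with AAV-GFP and 37.1 ± 5.198 CPM with AAV-Notum (SD, n = 6 each; -0.55, edgeR adjusted p = 0.136), and the groups did not overlap. Of 31 tested inhibitors of adipogenesis 5 were lower and 0 higher, with a median of -0.04, and the lower count ran from 3 (without any 1 of S_2011, S_2014, S_2031, S_2032 and S_2034) to 9 (without S_2042). Among them Trib3, a pseudokinase, had 10.4 ± 3.70 and 5.52 ± 0.995 CPM, and Twist2, a mesenchymal repressor, had 14.6 ± 1.91 and 10.5 ± 2.29 CPM (SD, n = 6 each).

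Glucocorticoid target genes were counted because hormones of this class induce Cebpd, Cebpb and Klf15. Of 20 tested genes 11 were lower and 0 higher, all 20 fitted fold changes were below 0, and the median was -0.55. Errfi1, a feedback inhibitor of the EGF receptor, had 65.1 ± 28.9 CPM with AAV-GFP and 28.9 ± 5.85 CPM with AAV-Notum (SD, n = 6 each; log2 fold change -1.17, edgeR adjusted p = 0.130). Zbtb16, a zinc finger factor that was also on the list of partners, had 176 ± 67.4 and 82.5 ± 26.02 CPM (-1.09, edgeR adjusted p = 0.140). The list was chosen with results of these mice known, and the level of the hormone was not measured in these data. With the adipocyte score as covariate 11 of its genes were lower and its median was -0.48.

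Beige and brown fat genes pointed the other way, with 3 of 18 tested genes higher, 0 lower and a median of 0.55, although Ebf2, a factor of this program, had a lower mean in AAV-Notum mice. Over the fits without 1 mouse the median ran from 0.24 (without S_2041) to 0.67, the higher count from 2 to 8 (8 without S_2022, 5 without S_2032), and the lower count from 0 to 2 (1 without S_2011, 2 without S_2041). Of all genes 10.3% were higher without S_2022. In AAV-GFP mice S_2011 and S_2014, which held little lymphoid RNA, the beige markers Tnfrsf9 (0.953 and 0.954 CPM), Tmem26 (1.57 and 1.55 CPM) and Tbx1 (0.729 and 1.85 CPM) were the lowest of all 12. Without both mice the median of the list was 0.32, with 3 genes higher and 1 lower, and with the lymphoid score as covariate it was 0.34. Medians of the B cell, T cell and skeletal muscle markers were 1.00, 0.99 and 1.39, and that of the hepatocyte markers was -2.79. The part of these cells in the list was not tested. P2rx5, an ATP-gated channel and surface marker of brown fat, had 8.83 ± 1.57 and 17.3 ± 5.14 CPM, without overlap between the groups (SD, n = 6 each; log2 fold change 0.97, edgeR adjusted p = 0.102). Cidea had 37.7 ± 16.9 and 80.4 ± 43.0 CPM (SD, n = 6 each; 1.09, edgeR adjusted p = 0.242). Prdm16 and Ppargc1a, regulators of the same program, had log2 fold changes of -0.13 and 0.10 (edgeR adjusted p = 0.777 and 0.837).

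**Figure D5:**
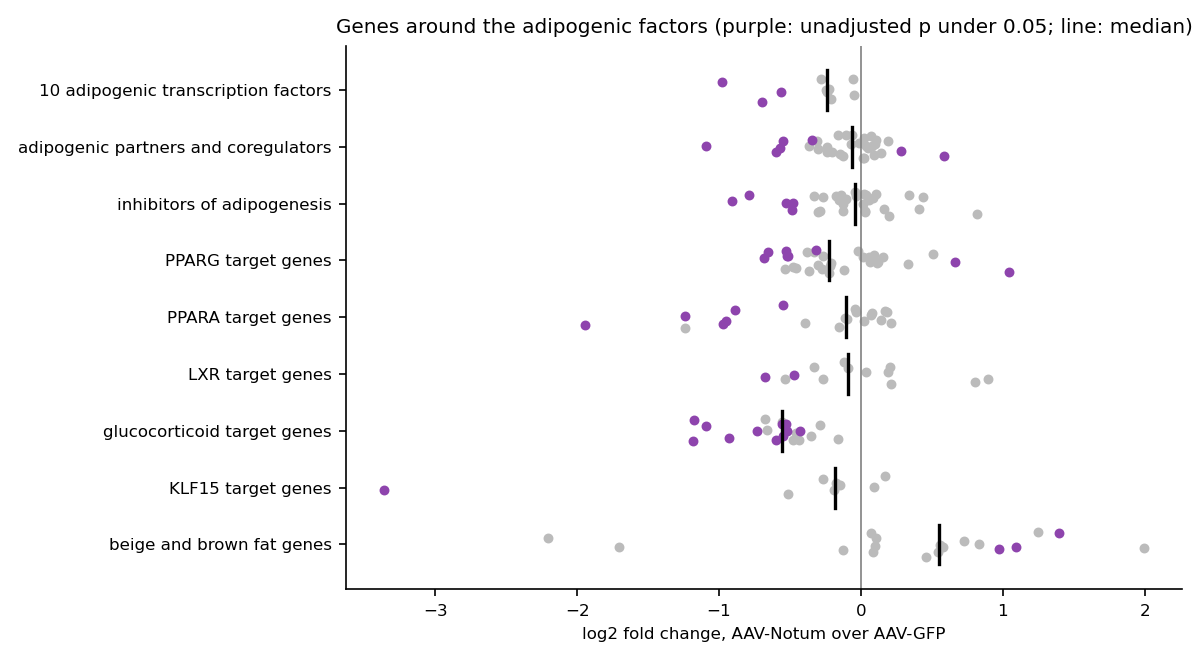
Log2 fold change, AAV-Notum over AAV-GFP, of each tested gene of the 10 factors and the 8 lists around them: purple points have an unadjusted p under 0.05, grey points do not, and the black line is the median of the list. The glucocorticoid targets all lie below 0 (median -0.55), the beige and brown fat genes have a median of 0.55, and 3 of the 10 factors are purple.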

How the data were processed

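RNA-seq of iWAT from 12 mice was analysed from the deposited tables. Per the labels and the study's methods, the authors made TruSeq libraries, sequenced single-end reads, mapped them to mm10 with STAR 2.3.1 and tested them with DESeq2. The counting program, its annotation and its use of strand are not given in the sources used here. The main table, as deposited by the authors, holds raw counts of reads per gene, 14711113 to 21618860 per mouse. A table of log2 values, also deposited by the authors, holds log2 of size-factor-scaled reads plus 1, and undoing this gave whole reads for 100% of values (tolerance 0.01). Of 31137 genes in both tables, 6725 had the same reads in all mice, so the tables hold different counts for most genes.

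Counts were filtered (filterByExpr, minimum count 10, minimum total 15), TMM-normalized and tested with edgeR 4.0.16 (glmQLFit, glmQLFTest, two-sided, Benjamini-Hochberg over 15585 genes, threshold 0.05) in R 4.3.3, after a test on simulated data. log2 CPM carried a prior count of 2. Exact permutation tests used the group means of log2 CPM, and correlations used 100000 resamples. TPM used exon lengths of GENCODE vM21, which 53990 of 54134 genes had. The members and gene lists were chosen with earlier results of these data known. Of each list the 2 genes of smallest p were named, while Fabp4, Adipoq, Cox8b, Ucp1, Slc27a2, Prdm16, Ppargc1a, Tnfrsf9, Tmem26, Tbx1, Elovl6 and Kcnk3 were added with their values known. The results were recomputed with DESeq2 1.42.0, limma-voom 3.58.1, other scalings, filters and covariates, the authors' log2 values, and without each mouse. Protein sequences were not used here. Of the genes that the naming rule or the marker lists chose, 2 are not reported here. Nothing in the labels says that the mice of a group came from separate cages or litters.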

Additional observations from a re-analysis of the deposited data

Results flagged for a closer look

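Among 48 groups of 6 values checked (10 members, 4 pairs of them and 10 marker scores in each of the 2 groups), 2 held a mouse far from the others, and chance alone flags about 1 group in 20. In the AAV-GFP group, mouse S_2014 had the lowest macrophage marker score, 4.88 beside 5.81 to 6.10 in the other 5 mice, and the gap was 0.764 of the group's range. In the AAV-Notum group, mouse S_2032 had the highest adipose progenitor score, 5.63 beside 5.26 to 5.37, a gap of 0.684 of the range. None of the 10 transcription factors had such a mouse. Mouse S_2014 had the highest Cebpb (102.9 CPM) and Cebpd (37.7 CPM) of all 12 mice, and mouse S_2032 had the lowest Cebpb (37.9 CPM), Nr1h3 (75.2 CPM) and Klf15 (75.3 CPM). The part of these cells in the levels of the factors was not tested.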

How the results depend on the processing

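The lower levels of Cebpd and Cebpb kept their direction under every alternative run, with log2 fold changes of -1.10 to -0.86 and -0.65 to -0.44 when each mouse was left out. The call of Cebpd depended on the tool: DESeq2 gave -0.97 and called 1 of 10 members, where edgeR called 0. Over all genes, the main edgeR fit called 0 higher and 8 lower. DESeq2 called 84 higher and 367 lower, RLE size factors 1 and 13, the filter of at least 10 counts in every mouse 1 and 14, and the adipocyte score as covariate, chosen after seeing the data, 9 and 40. The filter of at least 1 count in all gave 5 lower, the lymphoid score as covariate 4, the authors' normalized values with limma 4, and the 10 mice without AAV-GFP S_2011 and S_2014 gave 1 lower. The reads recovered from the normalized table gave 1 higher and 10 lower. Leaving out single mice gave 0 to 12 higher and 1 to 146 lower, the top of both ranges without AAV-GFP mouse S_2022, where 5 of 10 members were lower at an unadjusted p under 0.05 (2 to 5 over all 12 fits) and so were 13.6% of all genes.

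The sign of the late factors depended on the covariates. With the lymphoid score Pparg was at 0.15, Cebpa at 0.14 and Klf15 at 0.00157, with the adipocyte score Pparg was at 0.0681 and Cebpa at 0.14, and without AAV-GFP mice S_2011 and S_2014 Cebpa was at 0.0131. Without both of these mice Pparg was at -0.08. Over the single-mouse fits Pparg ran from -0.42 to -0.11, Cebpa from -0.16 to 0.0198 and Ppara from -0.31 to 0.10. On the scale of mean log2 CPM, Cebpa ran from -0.15 to 0.0203 (0.0143 without both mice), Rxra from -0.30 to -0.14, Nr1h3 from -0.38 to -0.21, Ebf1 from -0.32 to -0.15, and Ebf2 from -0.84 to -0.57 (-0.43 without both mice). The exact p of Ebf2 was above 0.05 without any 1 of AAV-GFP mice S_2011, S_2012 and S_2014 and AAV-Notum mice S_2031 to S_2034, whereas that of Rxra and Ebf1 was under 0.05 without S_2022 and that of Nr1h3 without S_2042. Cebpa minus Cebpb was 0.51 with the authors' values, 0.53 without both mice and 0.39 to 0.58 over single mice; Cebpa minus Cebpd was 0.86, 0.97 and 0.77 to 1.04; Ebf1 minus Ebf2 was 0.47, 0.35 and 0.41 to 0.58. These 3 pairs had an adjusted p above 0.05 in 10, 8 and 10 of the 12 single-mouse fits. Pparg minus Ppara was 0.36 without both mice and ran from -0.27 to 0.21. The median of the adipogenesis inhibitors was -0.13 with the lymphoid score and -0.15 without both mice, and that of the LXR targets was 0.0478 with the lymphoid score and -0.17 to 0.0376 over single mice. The cause of these differences between settings was not tested.

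RNA of mouse AAV-GFP S_2012 was isolated on another date than that of the other 11, so the fit without it is the fit within that date. No paired analysis was possible because the 2 groups share no replicate numbers. Depth limits Cebpd and Ppara most, with as few as 153 and 125 reads in a mouse.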
